A study of Mus musculus with 39 samples.

Results

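The genes described here are 10 genes linked to lipid-handling phagocytes, only some of which themselves take up, carry or export lipid: *Trem2*, *Gpnmb*, *Cd68*, *Apoe*, *Lgals3*, *Spp1*, *Lpl*, *Fabp5*, *Abca1* and *Abcg1*. They are listed by name, with no threshold on a measured value, and all 10 were among the 18442 genes that passed the filter on low counts, out of 55573 genes in the count tables. They were followed in bulk RNA-seq libraries of mouse sciatic nerve endoneurium, the axon-bearing core of the nerve left once the perineurial sheath has been stripped off. The study crushed 1 sciatic nerve per mouse and collected the distal injured nerve and the uninjured nerve of the other side, here called healthy, 2 or 4 weeks post crush (wpc).

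All mice were on a C57BL/6 background, aged between 2 and 4 months, of both sexes, and homozygous for a floxed leptin receptor allele (Leprfl/fl). Mice with this allele alone served as controls (Lepr-ctrl), and Leprfl/fl::Dhh-Cre mice formed the mutant group (Lepr-cKO). Dhh-Cre drives recombination in the Schwann cell lineage from the embryo on, so cells outside that lineage, such as macrophages, keep the receptor gene. At 2 wpc there were 5 healthy and 5 injured Lepr-ctrl libraries and 6 healthy and 5 injured Lepr-cKO libraries. At 4 wpc there were 5 healthy and 4 injured libraries of each genotype. The 39 libraries came from 22 mice, of which 17 gave both nerves, and a mouse is named here by its number in the labels, preceded by WT for Lepr-ctrl or KO for Lepr-cKO.

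After a crush the distal axons degenerate and their myelin, which is rich in cholesterol and other lipids, is broken down first by Schwann cells and then by macrophages that enter the nerve. TREM2 is a lipid-sensing receptor of myeloid cells that signals through the adaptor TYROBP, and phagocytes that engage it with lipid debris raise genes for lysosomal digestion, lipid carriage and cholesterol export. APOE carries lipid outside cells, ABCA1 and ABCG1 hand cholesterol to apolipoproteins and lipoprotein particles, and LPL and FABP5 handle fatty acids on their way into and through the cell. None of the genes is restricted to phagocytes: Schwann cells, endothelial cells and adipocytes also express several of them.

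Total counts per library ran from 10905806 to 45016322, with a median of 27752451, and those of the injured 4 wpc libraries from 10905806 to 25923752. The lowest count of any member in any library was 38, for *Trem2* in a healthy nerve. Summed Schwann cell markers lay between 60600 and 82600 CPM (counts scaled to a common library size after TMM adjustment) in healthy nerves and between 9790 and 59800 in injured nerves, and summed macrophage markers between 116 and 389 CPM and between 556 and 2120 CPM. In 1 injured Lepr-cKO library at 2 wpc, KO-126, skeletal muscle markers summed to 40100 CPM, against 36.9 CPM at most in the other libraries. The changes of *Lpl* and *Gpihbp1*, the correlations between genes and the count of all genes called between genotypes are given with and without KO-126. The correlations with cell markers are given without it. *Lepr* itself had group means of 6.63 to 10.2 CPM in healthy and 30.6 to 69.7 CPM in injured nerves and did not differ between the genotypes in any of the 4 comparisons (adjusted p from 0.362 to 1), but its counts cover the whole gene in all cells and cannot show a loss of its first exon in Schwann cells, so they do not check the labels.

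To show what lies just before the start of genes that rose and of 1 that fell, the 250 bases upstream of the RefSeq transcription start (GRCm38.p6) are printed. They are given for *Trem2*, *Cd68* and *Abca1*, which rose strongly after injury, and for *Spp1*, which fell at 2 wpc. The windows are chr17:48346151-48346400 on the plus strand for *Trem2*, chr11:69666171-69666420 on the minus strand for *Cd68*, chr4:53159896-53160145 on the minus strand for *Abca1* and chr5:104434861-104435110 on the plus strand for *Spp1*. Capitals mark matches to the motifs searched on both strands. CACGTG and TCATGTG are bound by MiT/TFE factors in lysosomal genes. TGANTCA is a loose form of the AP-1 site TGA(C/G)TCA, with any base at N. GAGGAA is the core of a PU.1 site.
Trem2: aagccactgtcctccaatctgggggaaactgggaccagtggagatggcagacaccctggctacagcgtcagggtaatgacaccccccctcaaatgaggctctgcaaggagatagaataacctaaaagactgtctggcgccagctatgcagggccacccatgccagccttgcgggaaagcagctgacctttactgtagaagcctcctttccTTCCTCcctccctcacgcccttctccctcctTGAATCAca
Cd68: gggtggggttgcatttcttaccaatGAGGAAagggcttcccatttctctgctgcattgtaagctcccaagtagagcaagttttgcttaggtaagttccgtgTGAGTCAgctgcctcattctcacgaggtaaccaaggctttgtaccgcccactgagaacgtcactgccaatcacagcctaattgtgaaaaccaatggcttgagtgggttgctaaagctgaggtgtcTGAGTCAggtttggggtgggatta
Abca1: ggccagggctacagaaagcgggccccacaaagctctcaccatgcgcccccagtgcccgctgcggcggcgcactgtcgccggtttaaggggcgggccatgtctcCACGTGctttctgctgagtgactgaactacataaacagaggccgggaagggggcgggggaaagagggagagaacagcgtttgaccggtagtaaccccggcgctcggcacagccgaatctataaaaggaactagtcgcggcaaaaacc
Spp1: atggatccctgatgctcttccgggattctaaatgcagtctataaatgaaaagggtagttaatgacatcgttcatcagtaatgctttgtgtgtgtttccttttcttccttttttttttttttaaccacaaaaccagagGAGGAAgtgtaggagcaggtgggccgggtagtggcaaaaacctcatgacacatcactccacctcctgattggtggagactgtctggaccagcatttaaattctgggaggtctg

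Promoter windows were found for 7 of the 10 genes, that is all but *Lpl*, *Abcg1* and *Fabp5*. TGANTCA stood in 2 of the 7, *Trem2* and *Cd68*, against 6.75% of 32851 windows of the same length. GAGGAA stood in 4 of the 7 (*Trem2*, *Cd68*, *Spp1* and *Apoe*) against 23.3% of all windows. CACGTG stood in 1 of the 7, *Abca1*, against 6.02%, and TCATGTG in 0 of the 7 against 3.25%. TGANTCA was present in 2 genes that rose, in *Cd68* as the AP-1 site TGAGTCA and in *Trem2* as TGAATCA, which is not that site. The PU.1 core was present both in genes that rose and in *Spp1*. These matches are a description of letters, not evidence of binding.

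Injury raised 8 of the 10 genes in each of the 4 comparisons of injured with healthy nerves, in both genotypes and at both times: *Trem2*, *Gpnmb*, *Cd68*, *Apoe*, *Lgals3*, *Lpl*, *Fabp5* and *Abca1*. A gene was called where its adjusted p was under 0.05 and its log2 fold change over 1 or under -1 (edgeR's quasi-likelihood test, Benjamini-Hochberg adjustment over all genes tested). Among all genes tested, 19.8% were called higher and 14.3% lower in Lepr-ctrl at 2 wpc, 20.9% and 13.4% in Lepr-cKO at 2 wpc, 20.1% and 15.9% in Lepr-ctrl at 4 wpc, and 16.8% and 10.8% in Lepr-cKO at 4 wpc. The median log2 fold change of the 10 genes was 3.46, 2.60, 3.32 and 2.91 in these comparisons, where that of all genes was 0.078, 0.097, 0.024 and 0.057. An unadjusted p under 0.05 was found for 12375, 12552, 12308 and 11051 of the 18442 genes tested, in the same order. The share of all genes whose injured and healthy libraries do not overlap was not computed for these comparisons. *Spp1* was called lower at 2 wpc in both genotypes, and *Abcg1* was called in none. In bulk libraries more cells of a type and more RNA per cell cannot be told apart.

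**Figure D1:**
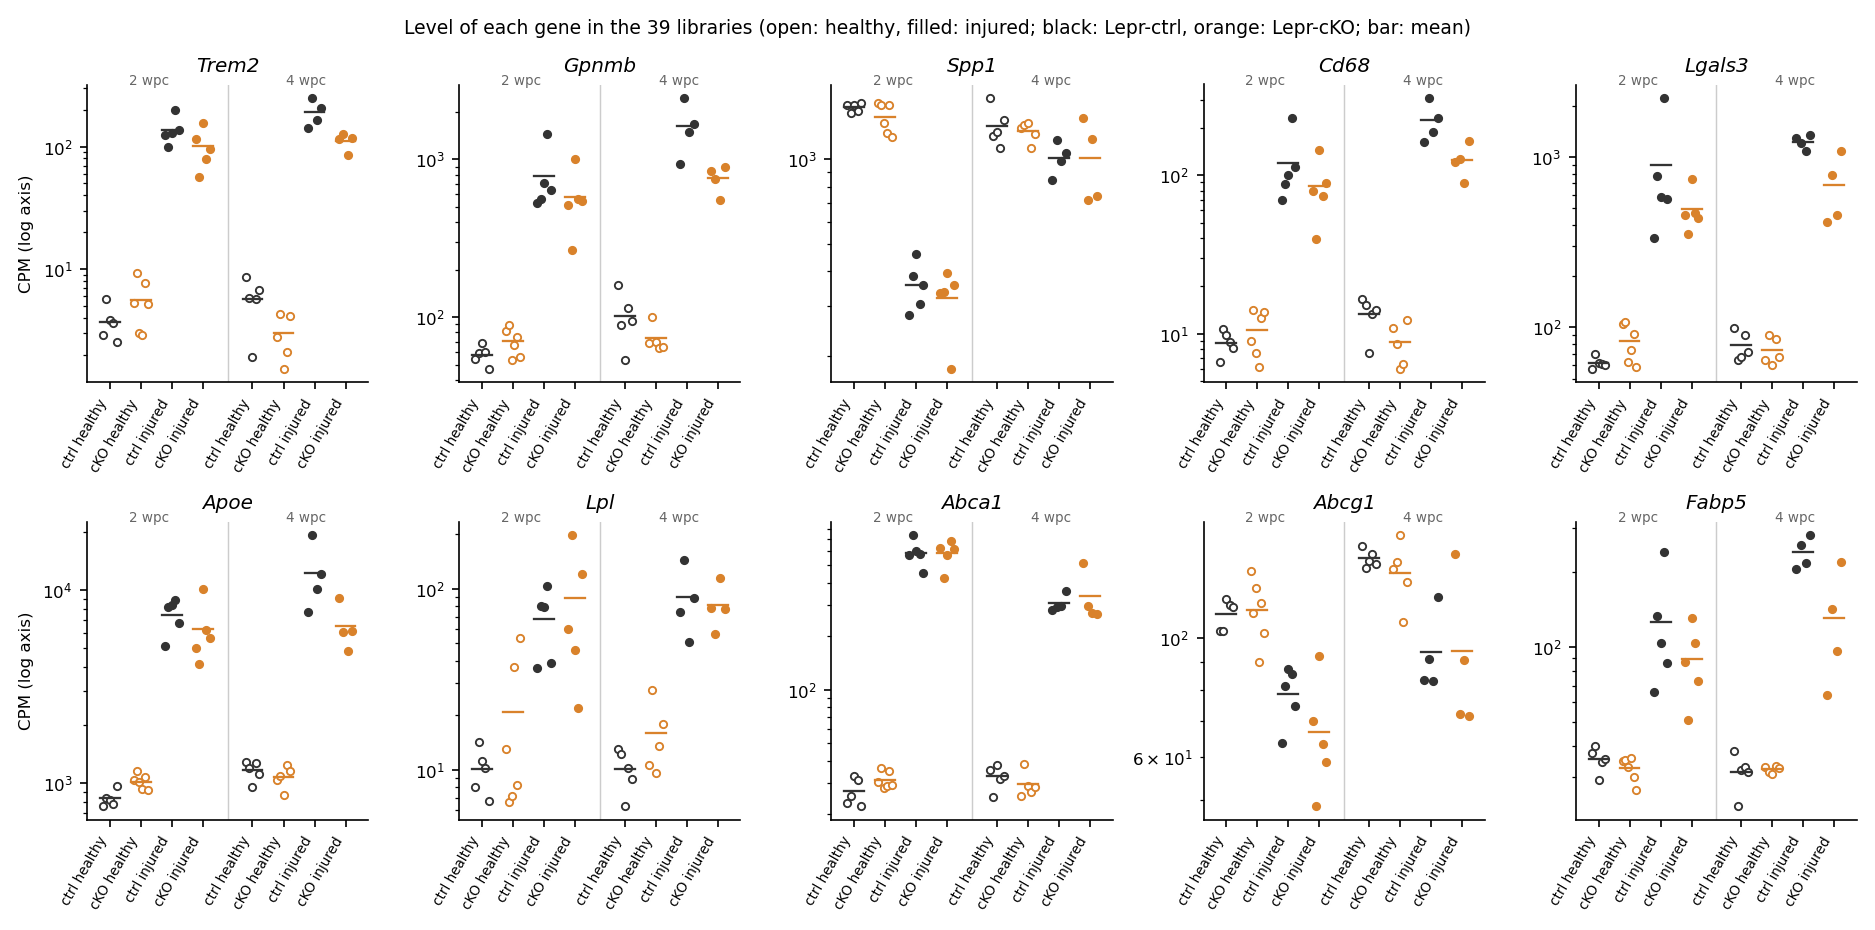
Level of each of the 10 genes in every library, in CPM on a log axis, with 1 panel per gene and the libraries grouped by time, side and genotype (open, healthy; filled, injured; black, Lepr-ctrl; orange, Lepr-cKO; bar, mean). The injured libraries of *Trem2*, *Gpnmb*, *Cd68*, *Apoe*, *Lgals3*, *Fabp5* and *Abca1* sit above all healthy libraries of their group, while *Spp1* drops at 2 wpc and *Abcg1* shifts little. The share of all genes whose libraries stay apart in this way was not computed.

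*Trem2* (ENSMUSG00000023992, chr17:48346401-48354147, plus strand) encodes the lipid-sensing receptor and had the largest rise of the 10 in every comparison but that of Lepr-cKO at 2 wpc, where *Abca1* had it. In healthy Lepr-ctrl nerves at 2 wpc it stood at 2.91, 5.70, 3.82, 3.60 and 2.54 CPM, and in the injured ones at 124, 99.7, 129, 199 and 137 CPM. In Lepr-cKO at 2 wpc the healthy libraries ran from 2.88 over a median of 5.21 to 9.23 CPM, and the injured ones stood at 116, 56.6, 157, 79.5 and 95.5 CPM. No injured library reached down to the healthy range in either genotype, and the lowest injured value was that of KO-126. The fold was 36.8 in Lepr-ctrl (log2 fold change 5.20 ± 0.37 SE, adjusted p = 3.89e-14) and 18.2 in Lepr-cKO (4.19 ± 0.32 SE, adjusted p = 3.03e-13).

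At 4 wpc healthy Lepr-ctrl nerves held *Trem2* at 8.67, 5.75, 1.93, 5.68 and 6.70 CPM and injured ones at 141, 249, 164 and 207 CPM. In Lepr-cKO the healthy values were 2.81, 4.32, 1.53, 2.12 and 4.12 CPM and the injured values 115, 127, 85.6 and 117 CPM. Injured and healthy values were again far apart, by 32.9-fold in Lepr-ctrl (5.04 ± 0.37 SE, adjusted p = 1.91e-13) and 36.8-fold in Lepr-cKO (5.20 ± 0.38 SE, adjusted p = 3.37e-13). In the 17 mice that gave both nerves *Trem2* was higher on the injured side in 17, by a log2 difference of 2.61 to 6.96.

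*Gpnmb* (ENSMUSG00000029816, chr6:49036546-49070929, plus strand) encodes a glycoprotein of lysosomal and cell surface membranes that is typical of lipid-laden macrophages. At 2 wpc its injured libraries stood at 527, 562, 708, 1460 and 642 CPM in Lepr-ctrl and at 516, 265, 1010, 563 and 544 CPM in Lepr-cKO, against 47.0 to 68.7 CPM and 53.5 to 89.8 CPM in the healthy ones. At 4 wpc the injured libraries stood at 941, 2450, 1500 and 1670 CPM in Lepr-ctrl and at 848, 756, 551 and 902 CPM in Lepr-cKO, against 53.5 to 161 CPM and 64.2 to 99.6 CPM. Every injured library lay above the healthy range of its group, and at 4 wpc every injured Lepr-ctrl library also lay above every injured Lepr-cKO library. The log2 fold changes after injury were 3.75 ± 0.32 and 3.04 ± 0.29 (SE) at 2 wpc and 4.00 ± 0.33 and 3.38 ± 0.32 at 4 wpc for Lepr-ctrl and Lepr-cKO, with adjusted p of 1.1e-10 or less.

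*Cd68* (ENSMUSG00000018774, chr11:69664213-69666153, minus strand), the macrophage lysosomal membrane protein macrosialin, went from 8.78 ± 1.57 CPM (SD, n = 5) to 120 ± 63.1 (n = 5) in Lepr-ctrl and from 10.5 ± 3.36 (n = 6) to 85.2 ± 37.8 (n = 5) in Lepr-cKO at 2 wpc. At 4 wpc it went from 13.3 ± 3.44 (n = 5) to 222 ± 63.3 CPM (n = 4) and from 8.79 ± 2.71 (n = 5) to 125 ± 30.9 (n = 4). The fold was 13.6, 8.14, 16.7 and 14.2 in the same order, and healthy and injured values overlapped in none of the 4 comparisons. The highest library at 2 wpc, WT-144 at 229 CPM, was also the highest injured 2 wpc library for *Trem2*, *Gpnmb*, *Lgals3* and *Fabp5*. Mitochondrially encoded genes took 33% of the counts of WT-144, against 8.19 to 11.8% in the other injured Lepr-ctrl libraries at 2 wpc. In the injured Lepr-cKO libraries at that time the share was 5.56 to 29.7%. The part of that share in the WT-144 values was not tested.

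The secreted proteins split into 2 that rose and 1 that fell. *Apoe* (ENSMUSG00000002985, chr7:19696109-19699188, minus strand), the apolipoprotein that macrophages release into the injured nerve, was the most abundant of the 10 in CPM in every injured group. At 2 wpc it stood at 5130, 8150, 8380, 8870 and 6760 CPM in injured Lepr-ctrl and at 5030, 4160, 10200, 6230 and 5670 CPM in injured Lepr-cKO nerves, with healthy ranges of 757 to 968 and 914 to 1150 CPM. At 4 wpc it stood at 7720, 19300, 10200 and 12100 CPM in injured Lepr-ctrl and at 9070, 6040, 4850 and 6140 CPM in injured Lepr-cKO nerves, with healthy ranges of 949 to 1290 and 869 to 1240 CPM. Injured and healthy values stayed apart in all groups, and the injured genotypes overlapped at both times, at 4 wpc through KO-169 and WT-170. The fold after injury was 8.99 and 6.16 at 2 wpc and 10.6 and 6.04 at 4 wpc for Lepr-ctrl and Lepr-cKO (log2 fold changes 3.17, 2.62, 3.41 and 2.59, SE 0.21 to 0.23, adjusted p of 2.27e-11 or less).

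*Lgals3* (ENSMUSG00000050335, chr14:47367751-47386160, plus strand), the galectin that binds damaged lysosomes and glycoproteins, rose by 14.5-fold and 5.94-fold at 2 wpc and by 15.7-fold and 9.34-fold at 4 wpc. The Lepr-ctrl log2 fold change at 2 wpc, 3.86, was 3.19 without WT-144. Its injured Lepr-ctrl values at 2 wpc were widely spread, at 337, 777, 582, 2220 and 567 CPM, against 460, 354, 747, 470 and 437 CPM in injured Lepr-cKO nerves. At 4 wpc the injured Lepr-ctrl nerves stood at 1290, 1210, 1080 and 1350 CPM and the Lepr-cKO nerves at 418, 781, 460 and 1090 CPM. The Lepr-ctrl range was set at 2 wpc by WT-144, and at 4 wpc KO-177 alone among the Lepr-cKO libraries reached the Lepr-ctrl range.

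*Spp1* (ENSMUSG00000029304, chr5:104435118-104441050, plus strand) encodes osteopontin, a secreted ligand of integrins and CD44, and went the other way. Healthy Lepr-ctrl nerves at 2 wpc held it at 1560, 1460, 1560, 1480 and 1580 CPM, and injured ones at 279, 384, 461, 305 and 359 CPM. In Lepr-cKO the healthy libraries ran from 1200 over 1460 to 1580 CPM, and the injured ones stood at 334, 339, 396, 180 and 359 CPM. Every injured library at 2 wpc lay below every healthy one, a fall to 0.234 of the healthy level in Lepr-ctrl (log2 fold change -2.10 ± 0.18 SE, adjusted p = 3.61e-12) and to 0.227 in Lepr-cKO (-2.14 ± 0.17 SE, adjusted p = 1.3e-12).

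At 4 wpc *Spp1* stood at 1650, 1210, 1250, 1100 and 1380 CPM in healthy and at 847, 1170, 986 and 1050 CPM in injured Lepr-ctrl nerves. In Lepr-cKO it stood at 1290, 1320, 1350, 1100 and 1230 CPM in healthy and at 1400, 717, 1180 and 743 CPM in injured nerves. Healthy and injured ranges overlapped in both genotypes, and neither difference passed the test (-0.38 ± 0.18 SE, adjusted p = 0.0682, and -0.32 ± 0.18 SE, adjusted p = 0.142). A transcript model on the same strand, Gm42793, overlaps the start of *Spp1* and held at most 4.25 CPM in any library, and reads that match both models may be missing from either count.

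Of the genes for fatty acid entry, *Lpl* (ENSMUSG00000015568, chr8:68880491-68907448, plus strand) encodes the lipase that frees fatty acids from lipoproteins. It rose from 10.1 ± 2.88 CPM (SD, n = 5) to 67.6 ± 29.1 (n = 5) in Lepr-ctrl at 2 wpc, by 6.70-fold (2.74 ± 0.52 SE, adjusted p = 2.46e-05), and from 10.2 ± 2.70 (n = 5) to 89.4 ± 39.7 (n = 4) at 4 wpc, by 8.78-fold (3.13 ± 0.54 SE, adjusted p = 6.72e-06). In Lepr-cKO it rose by 4.27-fold at 2 wpc (2.09 ± 0.47 SE, adjusted p = 0.000236) and by 5.13-fold at 4 wpc (2.36 ± 0.53 SE, adjusted p = 0.000306). The 2 wpc Lepr-cKO groups were the ones whose injured and healthy values overlapped, with healthy nerves from 6.64 over 10.7 to 53.4 CPM and injured nerves at 60.2, 197, 45.7, 22 and 121 CPM.

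The *Lpl* values that stood out in those groups went with adipocyte markers. The healthy libraries KO-135 and KO-138, at 36.8 and 53.4 CPM of *Lpl*, had summed levels of the 9 adipocyte markers of 313 and 305 CPM, where the median of the group was 164 CPM. The injured library KO-126, with the highest *Lpl* of all at 197 CPM, had an adipocyte marker sum of 1710 CPM. Without it the Lepr-cKO change at 2 wpc was 1.60 (adjusted p = 0.00281). In Lepr-cKO 1 of the 9 adipocyte markers was called higher after injury at each time and 0 were called lower. In Lepr-ctrl 8 of the 9 were called higher after injury. The ninth, *Pnpla2*, was called lower at 2 wpc (-1.02) and not called at 4 wpc. The Lepr-ctrl sums at 2 wpc were 106 to 160 CPM in healthy and 67.2 to 343 CPM in injured nerves. The medians were 112 and 90.9 CPM at 2 wpc and 155 and 244 CPM at 4 wpc. *Adipoq*, the adipocyte hormone adiponectin, was at 0 in some injured libraries of each Lepr-ctrl group and reached 17.9 CPM at 2 wpc and 26.5 CPM at 4 wpc in others. The part of adipocytes in the *Lpl* result was not tested.

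*Fabp5* (ENSMUSG00000027533, chr3:10012548-10016607, plus strand), a cytosolic fatty acid carrier, had the smallest rise of the 8. It went from 35.4 ± 3.93 CPM (SD, n = 5) to 126 ± 68.9 (n = 5) in Lepr-ctrl and from 32.6 ± 3.54 (n = 6) to 89.2 ± 30.4 (n = 5) in Lepr-cKO at 2 wpc, and from 31.6 ± 5.54 (n = 5) to 240 ± 34.7 (n = 4) and from 32.3 ± 1.01 (n = 5) to 130 ± 67.2 (n = 4) at 4 wpc. These are folds of 3.56, 2.73, 7.59 and 4.03 with adjusted p of 4.02e-06 or less. Its healthy level varied little, between 23.0 and 40.0 CPM over all healthy libraries.

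The exporters of cholesterol did not move together. *Abca1* (ENSMUSG00000015243, chr4:53030787-53159895, minus strand), which loads cholesterol onto lipid-poor apolipoproteins, stood at 571, 737, 605, 579 and 455 CPM in injured Lepr-ctrl and at 628, 423, 568, 686 and 621 CPM in injured Lepr-cKO nerves at 2 wpc, against 22.2 to 32.7 and 28.1 to 36.3 CPM in healthy ones. At 4 wpc it stood at 279, 291, 296 and 358 CPM and at 514, 294, 271 and 268 CPM, against 25.1 to 38.0 and 25.4 to 38.4 CPM. Injured and healthy libraries were wide apart throughout, and the genotypes overlapped at both times. The fold was 21.9 in Lepr-ctrl (4.45 ± 0.18 SE, adjusted p = 1.93e-19) and 18.7 in Lepr-cKO (4.23 ± 0.17 SE, adjusted p = 8.38e-20) at 2 wpc, and 9.36 and 11.4 at 4 wpc.

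*Abcg1* (ENSMUSG00000024030, chr17:31057675-31117988, plus strand), which passes cholesterol to mature lipoprotein particles, was lower in injured nerves in all 4 comparisons by less than the fold required for a call. Its log2 fold changes were -0.49 ± 0.15 (SE, adjusted p = 0.00527) and -0.76 ± 0.15 (adjusted p = 3.33e-05) at 2 wpc and -0.58 ± 0.16 (adjusted p = 0.00259) and -0.48 ± 0.16 (adjusted p = 0.0114) at 4 wpc for Lepr-ctrl and Lepr-cKO. Injured and healthy libraries overlapped in Lepr-cKO at both times and not in Lepr-ctrl, where healthy nerves held 103 to 118 CPM and injured ones 63.9 to 87.4 CPM at 2 wpc, and 135 to 148 and 83.3 to 119 CPM at 4 wpc.

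**Figure D2:**
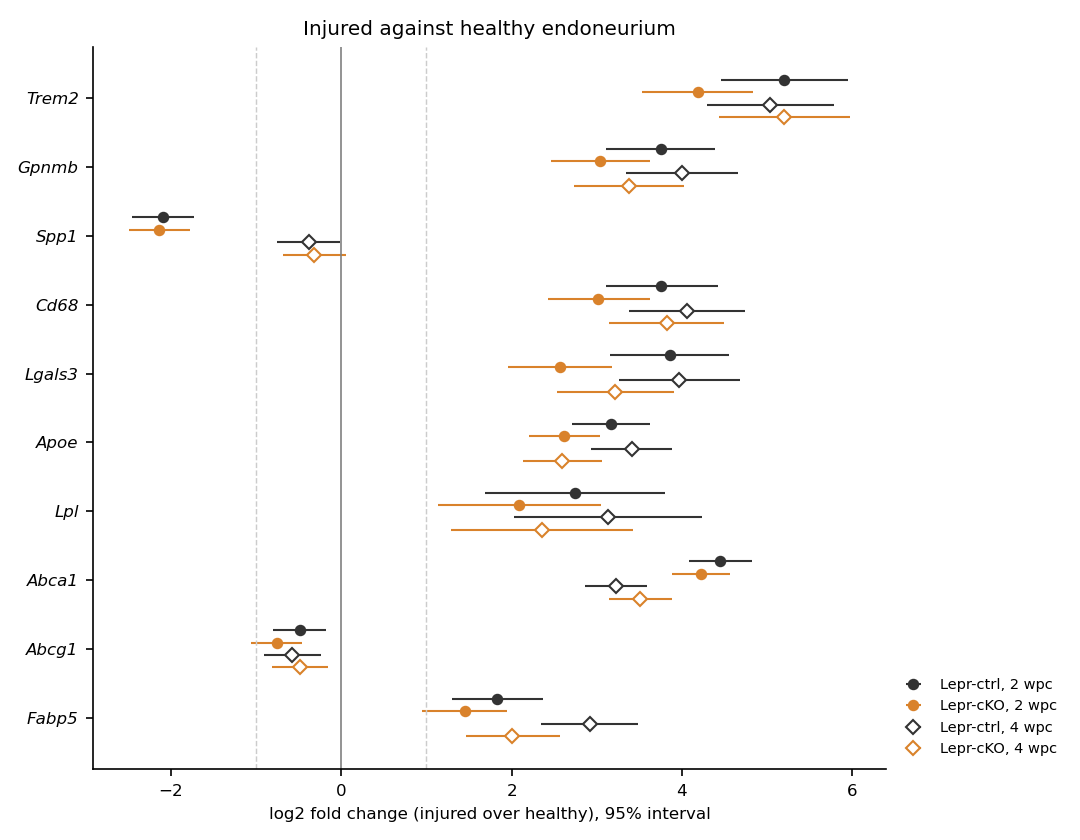
Log2 fold change of each of the 10 genes in injured against healthy nerves, with its 95% confidence interval, for each genotype (black, Lepr-ctrl; orange, Lepr-cKO) and time (circles, 2 wpc; diamonds, 4 wpc), and dashed lines at -1 and 1. The intervals of 8 genes lie above 0 in all 4 comparisons, and those of *Spp1* move from about -2 at 2 wpc to near 0 at 4 wpc.

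Together the 10 genes took 0.258% ± 0.00826 (SD, n = 5) of all counts in healthy Lepr-ctrl nerves at 2 wpc and 1.15% ± 0.185 (n = 5) in injured ones, and 0.275% ± 0.0329 (n = 5) and 1.69% ± 0.511 (n = 4) at 4 wpc. In Lepr-cKO the shares were 0.27% ± 0.0251 (n = 6) and 0.908% ± 0.296 (n = 5) at 2 wpc and 0.259% ± 0.014 (n = 5) and 1.04% ± 0.211 (n = 4) at 4 wpc. Per length of exon (RPKM, the CPM divided by the exon length in kilobases), *Spp1* was first in every healthy group, at 762 to 928 as a group mean, and *Apoe* second, at 388 to 544. In every injured group *Apoe* was first, at 2930 to 5760 RPKM. In healthy Lepr-ctrl nerves at 2 wpc the order went on with *Lgals3* at 33.3, *Abcg1* at 15.2, *Fabp5* at 9.93, *Gpnmb* at 8.88, *Cd68* at 6.98, *Abca1* at 2.60, *Lpl* at 0.962 and *Trem2* at 0.750 RPKM, and the ranges of *Fabp5*, *Gpnmb* and *Cd68* overlapped as neighbours, as did those of *Lpl* and *Trem2*.

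In injured Lepr-ctrl nerves at 4 wpc *Apoe* at 5760 RPKM was followed by *Lgals3* at 663, *Spp1* at 614, *Gpnmb* at 252, *Cd68* at 130 to 245, *Fabp5* at 67.2, *Trem2* at 38.5, *Abca1* at 29.5, *Abcg1* at 12.9 and *Lpl* at 8.52. Neighbours whose ranges overlapped there were *Lgals3* and *Spp1*, *Gpnmb* and *Cd68*, *Trem2* and *Abca1*, and *Abcg1* and *Lpl*. In injured Lepr-cKO nerves at 4 wpc *Spp1* at 612 RPKM stood ahead of *Lgals3* at 370 and *Abca1* at 32.5 ahead of *Trem2* at 22.5, and the first 2 of these overlapped in range. The order depends on the length used: with the length of the principal transcript in place of all annotated exons, a choice made after seeing the data, *Fabp5* in injured Lepr-ctrl nerves at 4 wpc was at 243 RPKM in place of 67.2, and *Trem2* in injured Lepr-cKO nerves at 4 wpc at 102 in place of 22.5.

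Between the time points, the size of the injury response differed for *Spp1* and *Abca1*. The response at 4 wpc minus that at 2 wpc was called for 4.42% of all genes tested in Lepr-ctrl and for 1.42% in Lepr-cKO, and for 2 and 1 of the 10 genes. For *Spp1* the difference in log2 fold change was 1.72 ± 0.25 (SE, adjusted p = 0.000122) in Lepr-ctrl and 1.82 ± 0.25 (adjusted p = 5.48e-05) in Lepr-cKO, the loss of most of the fall seen at 2 wpc. For *Abca1* it was -1.22 ± 0.24 (adjusted p = 0.00124) in Lepr-ctrl, where the rise was smaller at 4 wpc, and -0.71 ± 0.23 (adjusted p = 0.0971) in Lepr-cKO. The Lepr-cKO value of *Abca1* depended on KO-169, at 514 CPM the highest of its group, and was -1.01 (adjusted p = 0.00577) without it.

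*Fabp5* stood near the threshold, with a difference of 1.09 ± 0.37 (SE, adjusted p = 0.0575) in Lepr-ctrl. It passed without WT-144 (1.46, adjusted p = 0.00312) and with the mouse as a block in the fit (1.56, adjusted p = 0.0104). The 5 mice that gave a single nerve, WT-144 among them, added nothing to the injury response in the block fit. These fits are thus not separate checks. *Trem2*, *Gpnmb*, *Cd68*, *Lgals3*, *Apoe*, *Lpl* and *Abcg1* did not pass in either genotype, with differences from -0.16 to 1.01. The animals at 2 and 4 wpc were different mice, and any difference between the 2 collections cannot be told apart from time.

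Macrophage markers rose with the 8 genes: 11 of 14 were called higher in both genotypes at 2 wpc, and 13 and 12 of 14 at 4 wpc in Lepr-ctrl and Lepr-cKO, with 1 called lower each time. Their mean log2 CPM went from 3.39 to 5.40 and from 3.21 to 5.13 at 2 wpc, and from 3.32 to 5.84 and from 2.88 to 5.32 at 4 wpc. Against that mean, *Trem2* was higher in injured than in healthy nerves by 3.19, 2.30, 2.62 and 2.84 on the log2 scale (Lepr-ctrl and Lepr-cKO at 2 wpc, then at 4 wpc). *Gpnmb* was higher by 1.64, 1.02, 1.48 and 0.94 and *Cd68* by 1.63, 1.05, 1.54 and 1.40. These genes thus gained more than the mean of the macrophage markers, which is a description and was not tested.

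The others exceeded that mean or fell short of it to different degrees. *Abca1* exceeded the marker mean by 2.44 and 2.29 at 2 wpc and by 0.71 and 1.03 at 4 wpc, and *Lgals3* by 1.52, 0.65, 1.46 and 0.69. *Apoe* exceeded it by 1.13, 0.64, 0.81 and 0.13, and *Lpl* by 0.65, 0.28, 0.55 and -0.02. *Fabp5* lay at -0.33, -0.53, 0.41 and -0.58, close to the markers' own rise. *Spp1*, at -4.13 to -2.81, and *Abcg1*, at -3.11 to -2.51, lay far below it.

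**Figure D3:**
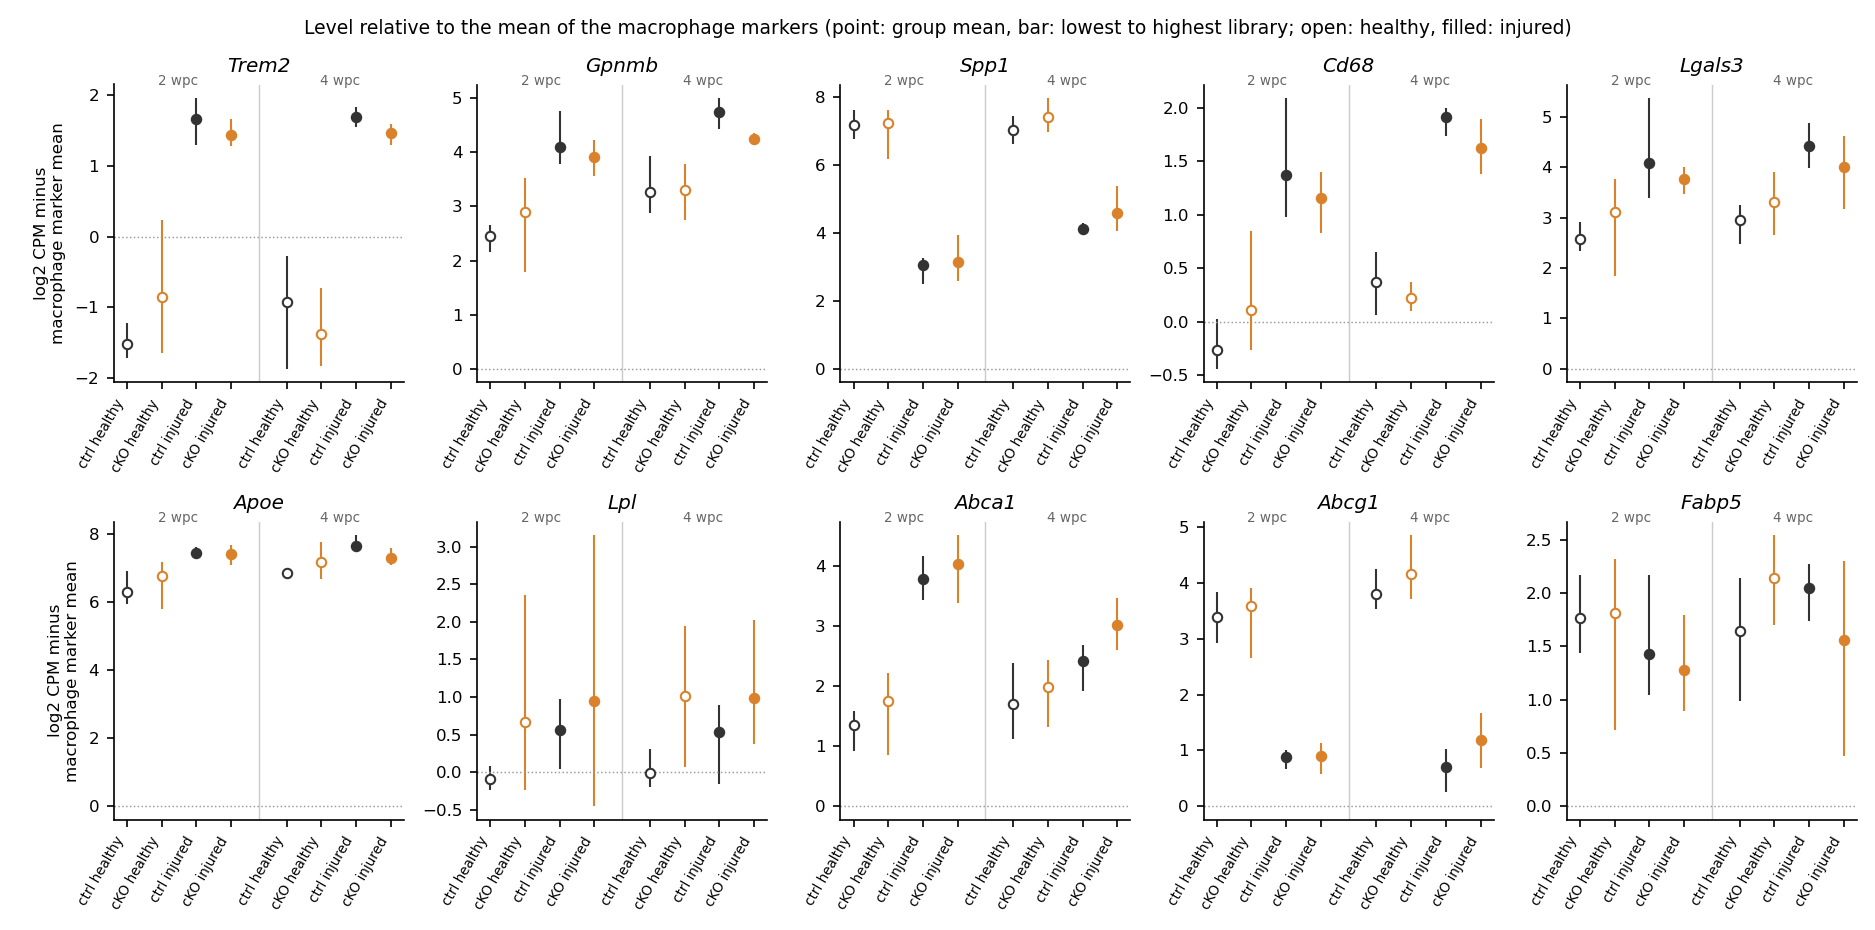
Log2 CPM of each gene minus the mean log2 CPM of 14 macrophage markers, with the point at the group mean and the bar from the lowest to the highest library (open, healthy; filled, injured; black, Lepr-ctrl; orange, Lepr-cKO). *Trem2*, *Gpnmb*, *Cd68*, *Lgals3* and *Abca1* rise relative to the markers after injury, and *Spp1* and *Abcg1* drop.

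Deletion of *Lepr* from Schwann cells was compared within each side and time, to ask whether the phagocyte genes depend on the receptor there. By edgeR 0 of the 10 genes were called between genotypes in any of the 4 comparisons, where 0.569% of all genes were called in injured nerves at 2 wpc, 0.45% in injured nerves at 4 wpc, and 0.00542% in healthy nerves at each time. At an unadjusted p under 0.05 there were 1 of the 10 in injured nerves at 2 wpc, 6 in injured nerves at 4 wpc, 1 in healthy nerves at 2 wpc and 1 at 4 wpc, where 1187, 3667, 222 and 346 of the 18442 genes tested had one in the same order. Without KO-126, 1 of all genes was called in injured nerves at 2 wpc in place of 105. DESeq2 called 0 and 1 of them in injured nerves at 2 and 4 wpc, and 0 and 0 in healthy nerves. The median log2 difference of the 10 genes, Lepr-cKO against Lepr-ctrl, was -0.34 in injured nerves at 2 wpc and -0.80 at 4 wpc, where that of all genes was 0.005 and 0.031, and 0.27 and -0.10 in healthy nerves.

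In injured nerves at 4 wpc *Apoe* passed by its adjusted p alone, as did 1.31% of all genes, with a fold of 0.529 (log2 fold change -0.92 ± 0.23 SE, adjusted p = 0.0466), short of the fold required for a call. It stayed under 0.05 in 3 of the 8 fits that left out 1 injured 4 wpc library, with adjusted p from 0.0204 to 0.172, and had adjusted p from 0.00573 (DESeq2) to 0.329 (the compared groups alone) under the other settings. *Gpnmb* had the largest difference, -1.10 ± 0.32 (SE, adjusted p = 0.0633), from 1640 ± 623 CPM (SD, n = 4) in Lepr-ctrl to 764 ± 154 (n = 4) in Lepr-cKO. *Trem2* had -0.77 ± 0.34 (SE, adjusted p = 0.195), from 190 ± 47.8 to 111 ± 17.8 CPM. The genotypes did not overlap for *Gpnmb* and *Trem2*, as for 5.68% of all genes tested in that comparison.

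*Fabp5* (-0.88 ± 0.29 SE, adjusted p = 0.0878), *Lgals3* (-0.84 ± 0.34 SE, adjusted p = 0.16) and *Cd68* (-0.83 ± 0.32 SE, adjusted p = 0.147) had like values and overlapping groups. Without KO-177, whose *Gpnmb*, *Lgals3*, *Fabp5* and *Cd68* levels were the highest of the injured Lepr-cKO nerves at 4 wpc, 3 of the 10 genes were called: *Fabp5* (-1.26, adjusted p = 0.00691), *Gpnmb* (-1.20, adjusted p = 0.0251) and *Lgals3* (-1.16, adjusted p = 0.0352). Without WT-170, 1 was, *Apoe* (-1.10, adjusted p = 0.0236). The share of all genes called in the fits without KO-177 and without WT-170 is not given here. *Spp1*, *Lpl*, *Abca1* and *Abcg1* stood at -0.01, -0.13, 0.14 and 0.01, with 95% intervals of -0.40 to 0.38, -1.23 to 0.97, -0.22 to 0.50 and -0.34 to 0.35. The narrow intervals of *Spp1*, *Abca1* and *Abcg1* leave out a difference as large as a log2 of 1 in these libraries, and that of *Lpl* does not.

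Values of marker lists went along with this comparison. Of 14 macrophage markers 0 were called by edgeR and 0 by DESeq2, 6 had an unadjusted p under 0.05, all lower in Lepr-cKO, where 3667 of the 18442 genes tested had one in either direction, their median difference was -0.61, and their sums were 1160 to 2120 CPM in injured Lepr-ctrl and 691 to 1270 CPM in injured Lepr-cKO nerves at 4 wpc. Of 8 Schwann cell markers 0 were called by edgeR and 2 by DESeq2, and 7 had an unadjusted p under 0.05, none of them lower, with a median of 0.66 and sums of 17100 to 23900 and 21300 to 59800 CPM. Relative to the macrophage marker mean, *Trem2* was at 1.69 ± 0.11 (SD, n = 4) in Lepr-ctrl and 1.47 ± 0.14 (n = 4) in Lepr-cKO on the log2 scale, *Apoe* at 7.66 ± 0.23 and 7.31 ± 0.24, and *Gpnmb* at 4.75 ± 0.24 and 4.24 ± 0.10. The genotypes overlapped on this scale for *Trem2* and *Apoe*, as for *Lgals3*, *Fabp5* and *Cd68*. For *Gpnmb* the lowest Lepr-ctrl value was 4.43 and the highest Lepr-cKO value 4.35. The share of all genes whose genotypes stay apart on this scale was not computed. The share of counts from mitochondrially encoded genes was 17.2 to 21.6% in the injured Lepr-ctrl libraries at 4 wpc and 2.95, 9.84, 12.6 and 20.2% in the Lepr-cKO ones, with KO-169 the lowest and KO-177 the highest. With those genes left out of the scaling *Apoe* stood at -0.92 (adjusted p = 0.0426). The part of that share and of a difference in cell makeup in the genotype values was not tested.

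At 2 wpc *Lgals3* stood at -0.86 ± 0.31 (SE, adjusted p = 0.422) in injured nerves and at -0.20 without WT-144. All 10 genes had overlapping groups there, and the share of all genes that did was not computed. In healthy nerves *Trem2* stood at -0.94 ± 0.34 (SE, adjusted p = 1) at 4 wpc, from 5.75 ± 2.45 CPM (SD, n = 5) to 2.98 ± 1.22 (n = 5), and at 0.57 ± 0.31 at 2 wpc. *Lpl* stood at 1.05 ± 0.48 (SE, adjusted p = 1) in healthy nerves at 2 wpc and at 0.51 without KO-138. The direct test of whether the injury response differed between genotypes called 0 of the 10 genes at either time, and 0% and 0% of all genes, of which 797 and 2013 had an unadjusted p under 0.05 and DESeq2 called 2 and 4. At an unadjusted p under 0.05 it gave 2 of the 10 at each time, *Lgals3* (-1.29 ± 0.43 SE, adjusted p = 0.774) and *Trem2* (-1.01 ± 0.44, adjusted p = 0.999) at 2 wpc and *Apoe* (-0.81 ± 0.31, adjusted p = 0.384) and *Fabp5* (-0.91 ± 0.38, adjusted p = 0.416) at 4 wpc, and DESeq2 called 0 of them. Without WT-144 the *Lgals3* value was -0.62.

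**Figure D4:**
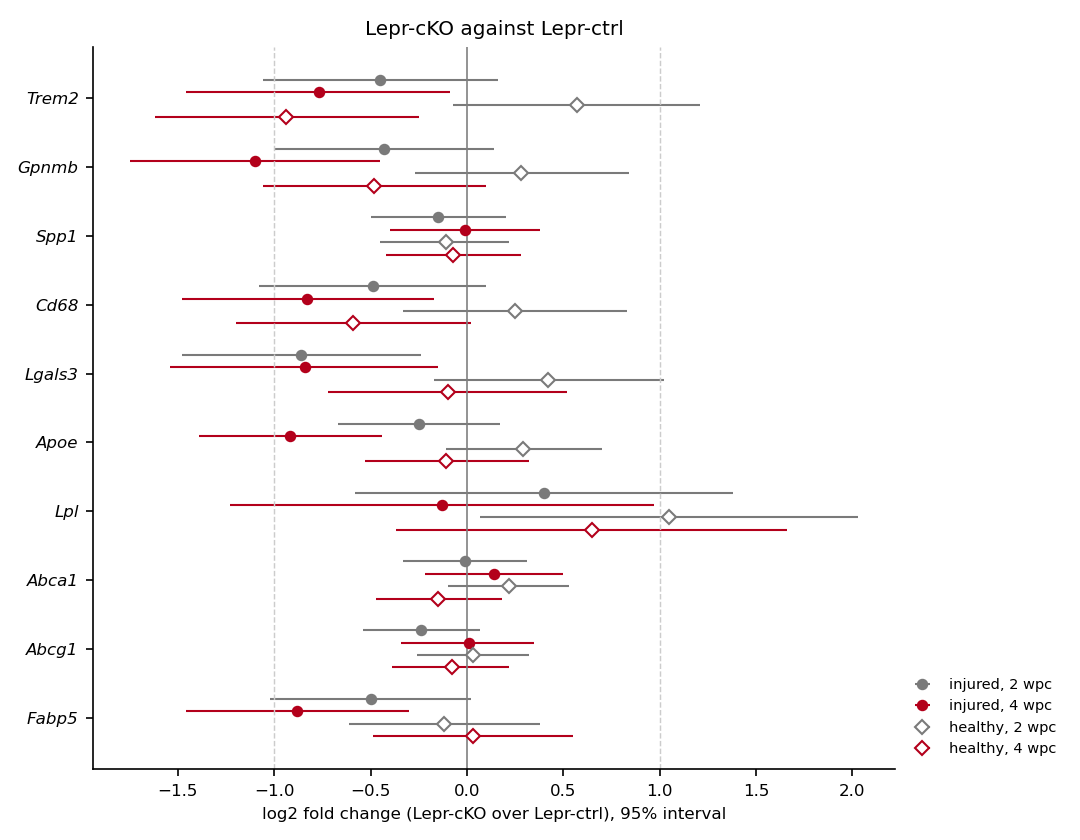
Log2 fold change of each of the 10 genes in Lepr-cKO against Lepr-ctrl nerves, with its 95% confidence interval, for injured and healthy nerves at 2 and 4 wpc. In injured nerves at 4 wpc *Gpnmb*, *Apoe*, *Fabp5*, *Lgals3*, *Cd68* and *Trem2* lie between -1.10 and -0.77 with intervals below 0, and none of the 10 was called in any comparison.

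The partners of these genes were read from lists written beside them. Of 11 genes of TREM2 signalling, 9 were called higher and 1 lower in each of the 4 comparisons. In Lepr-ctrl at 2 wpc *Ms4a7*, a membrane-spanning protein of macrophages, rose by 4.33 ± 0.41 (log2, SE), and the adaptors *Hcst* and *Tyrobp*, which relay the receptor's signal, by 3.84 ± 0.45 and 3.71 ± 0.33. *Adam10*, a protease that sheds TREM2 from the surface, fell by 1.84 on the log2 scale. Of 17 damage-associated phagocyte genes, only some of which microglia raise downstream of TREM2, 12 were called higher and 2 lower in both genotypes at 2 wpc. At 4 wpc 11 were called higher and 2 lower in Lepr-ctrl, and 12 and 1 in Lepr-cKO. *Itgax*, the integrin CD11c, rose by 7.48 ± 0.69, *Clec7a*, the glucan receptor dectin-1, by 4.74 ± 0.36 and the chemokine gene *Ccl6* by 4.31 ± 0.55 in Lepr-ctrl at 2 wpc, while *Ank* and *Cd9* stood at -1.73 and -1.33.

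Uptake receptors were divided. Of 16 measured genes for the uptake of lipid and debris, 6 were called higher and 3 lower in both genotypes at 2 wpc, and 8 and 5 in Lepr-ctrl and 7 and 3 in Lepr-cKO at 4 wpc. *Cd5l*, a secreted macrophage protein, went from at most 0.0909 CPM in healthy Lepr-ctrl nerves at 2 wpc to 4.70 to 8.83 CPM in injured ones, and to 26.9 to 115 CPM at 4 wpc. *Olr1*, a receptor for oxidised lipoprotein, stood at 0.152 to 3.28 CPM in injured Lepr-ctrl nerves at 2 wpc and at most at 0.0455 CPM in healthy ones. The scavenger receptor *Msr1* rose by 2.25 ± 0.35. The phagocytic kinase *Mertk* and the lipoprotein receptor *Lrp1* stood at -1.56 ± 0.23 and -1.23 ± 0.21.

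Of 17 measured genes for cholesterol storage and efflux, 6 were called higher and 1 lower in Lepr-ctrl at 2 wpc, 5 and 1 in Lepr-cKO at both times, and 5 and 2 in Lepr-ctrl at 4 wpc. *Apoc1*, an apolipoprotein that lies next to *Apoe*, went from at most 0.236 CPM in healthy to 3.58 to 8.12 CPM in injured Lepr-ctrl nerves at 2 wpc. *Ch25h*, the cholesterol 25-hydroxylase, rose by 3.47 ± 0.40 and *Plin2*, a coat protein of lipid droplets, by 2.35 ± 0.21, while *Npc1*, which moves cholesterol out of lysosomes, stood at -1.39 ± 0.15. *Nr1h3*, which encodes the sterol sensor LXRα that controls *Abca1* and *Abcg1*, was not called and stood at -0.16 ± 0.17 (adjusted p = 0.394). Among the MiT/TFE factors of lysosomal genes 1 of 4 was called, *Tfec*, at most at 0.118 CPM in healthy and at 2.74 to 13.5 CPM in injured Lepr-ctrl nerves at 2 wpc.

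Among 8 partners of lipoprotein lipase 1 was called higher and 2 lower in Lepr-ctrl at 2 wpc, the lower ones being the protease *Pcsk6* at -5.21 ± 0.39 and *Gpihbp1*, which holds the lipase on capillaries, at -1.89 ± 0.45. Of the other fatty acid binding proteins 4 of 9 were measured: *Fabp4*, the carrier of adipocytes and macrophages, went from 0.440 ± 0.205 CPM (SD, n = 5) to 72.7 ± 54.9 (n = 5) in Lepr-ctrl at 2 wpc, and *Pmp2*, the carrier of myelin, stood at -1.11 ± 0.32 (log2, SE). Of 8 receptors of osteopontin 4 were called higher and 2 lower in both genotypes at 2 wpc, among them *Cd44* at 1.85 ± 0.26 and *Itga5* at 1.56 ± 0.26 against *Itgb5* at -2.37 ± 0.15 and *Itgav* at -1.90 ± 0.24. Of 8 galectins and relatives of *Gpnmb*, 2 were called higher in each comparison, *Lgals9* (1.60 ± 0.25) and the lysosomal tetraspanin *Cd63* (1.32 ± 0.15) in Lepr-ctrl at 2 wpc, and *Lamp1*, a protein of the lysosomal membrane, was called lower in Lepr-cKO at 2 wpc (-1.01 ± 0.16) and in Lepr-ctrl at 4 wpc (-1.04 ± 0.18).

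Between the genotypes *Gpihbp1* and *Mfge8* were among the partners called. *Gpihbp1* was higher in injured Lepr-cKO nerves at 2 wpc (1.98 ± 0.45 SE, adjusted p = 0.0218), with 0.551 to 10.3 CPM against 0.610 to 1.22 CPM, and stood at 1.14 (adjusted p = 0.902) without KO-126, the library with the muscle and adipocyte markers, at adjusted p of 0.0952, 0.0807 and 0.058 without WT-123, WT-144 and WT-147, and at 1 with the compared groups alone. *Mfge8*, a bridging protein between dying cells and phagocytes, was lower in injured Lepr-cKO nerves at 4 wpc (-1.19 ± 0.30 SE, adjusted p = 0.0415), at 155 ± 46.9 against 354 ± 201 CPM. It was not called without any 1 of WT-170, WT-171 (-0.76, adjusted p = 0.182), WT-178, KO-169, KO-175 and KO-176, nor with no expression filter, a term for sex or the compared groups alone.

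After the group means were subtracted, the deviations of the 10 genes over the 39 libraries were related to different extents. Over the 45 pairs the median Pearson correlation was 0.28, 37 pairs were positive, and the highest were *Lgals3* with *Fabp5* (0.86), *Trem2* with *Cd68* (0.83) and *Gpnmb* with *Cd68* (0.78). The lowest was *Spp1* with *Fabp5* (-0.25). Without KO-126 the median was 0.22. All points share library depth and the mix of cells in each nerve.

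Over all genes tested, the pattern most like that of *Trem2* was that of *Mpeg1* (0.86) and *Cd300c2* (0.84), and that of *Cd68* was most like *Tyrobp* (0.90), *C1qb* (0.89) and *C1qc* (0.89). *Gpnmb* was nearest to *Slc37a2* (0.80), *Cd22* (0.78) and *Lyz2* (0.78), *Apoe* to *Man2b1* (0.87), *Psap* (0.85) and *Ctsb* (0.84), and *Lgals3* to *Cotl1* (0.90), *Plin2* (0.89) and *Cstb* (0.89). *Fabp5* was nearest to *Sdcbp* (0.91), *Sh3bgrl3* (0.90) and *Fendrr* (0.89), and *Lpl* to *Mgst1* (0.84), *Cd36* (0.84) and *Fabp4* (0.83). *Spp1* was nearest to *Cyp4f14* (0.78), *Rtn1* (0.75) and *Actr8* (0.75), *Abca1* to *Erlin1* (0.75), *Runx2* (0.74) and *Mindy3* (0.72), and *Abcg1* to *Fbxo46*, *Mcmbp* and *Pde6b* (0.68 each). Without KO-126 the nearest gene was the same for *Trem2*, *Cd68*, *Lpl*, *Spp1* and *Abca1*, and became *Ctsd* (0.78) for *Gpnmb*, *Psap* (0.87) for *Apoe*, *S100a1* (0.91) for *Lgals3*, *Akr1a1* (0.92) for *Fabp5* and *Daglb* (0.70) for *Abcg1*.

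The cell markers the genes followed within groups also differed. These correlations were computed without KO-126 only. The deviations of *Cd68* and *Trem2* had correlations of 0.78 and 0.60 with those of the macrophage markers. Lower values were those of *Apoe* (0.51), *Gpnmb* (0.48), *Lpl* (0.46), *Lgals3* (0.24), *Abcg1* (0.22), *Fabp5* (0.19), *Spp1* (0.16) and *Abca1* (0.03). *Fabp5* and *Lgals3* had -0.83 and -0.72 with the Schwann cell markers, and *Spp1* had 0.53 with them. *Lpl* had 0.69 with the adipocyte markers.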

How the data were processed

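The authors prepared libraries with the TruSeq RNA Sample Prep Kit v2, which does not keep strand, so reads of overlapping or antisense genes cannot be told apart. They sequenced single reads, and per the submitters' notes used bcl2fastq 2.20.0.422, STAR 2.5 on GRCm38 and featureCounts 1.5.0-p1. The deposited files hold raw counts per gene. In R 4.3.3, edgeR 4.0.16 (with limma 3.58.1) was fitted to all 39 libraries as 8 groups, with TMM scaling, a filter by expression (minimum count 10, minimum total 15), the quasi-likelihood test and Benjamini-Hochberg adjustment. A call needed an adjusted p under 0.05 and a log2 fold change beyond 1 in size. Log2 CPM used a prior count of 2. RPKM used the union of annotated exons.

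Named genes were the 10 members, and of each partner list the called genes with the largest changes in Lepr-ctrl at 2 wpc (up to 3 per direction) and those called between genotypes. Some genes of the partner lists are not reported here. The members and lists were chosen with earlier results of these data known. Both nerves of 17 mice pair the samples by animal: their deviations correlated at -0.116 to 0.567, 14 over 0.1. The fit with the animal as a block, DESeq2 1.42.0, its size factors, other filters and scalings, a term for sex, the compared groups alone and leaving out each library were tried. The principal transcript length was added after seeing the data.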

Additional observations from a re-analysis of the deposited data

Results flagged for a closer look

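For each library at either end of a set, the gap in log2 CPM to the nearest other library was divided by the range of the set. Of 80 sets of values (10 genes in 8 groups), 6 held a library that passed Dixon's 95% value, where chance alone gives about 1 in 20. The values below are in CPM, where the same rule can flag other libraries. In healthy Lepr-ctrl nerves at 4 wpc WT-171 was low for *Trem2* (1.93 CPM) and for *Cd68* (7.52 CPM). In injured Lepr-ctrl nerves at 2 wpc WT-144 was high for *Gpnmb* (1460 CPM). In healthy Lepr-cKO nerves at 4 wpc KO-175 was high for *Gpnmb* (99.6 CPM). In injured Lepr-cKO nerves KO-135 was low for *Spp1* at 2 wpc (180 CPM) and KO-169 was high for *Abca1* at 4 wpc (514 CPM).

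The injury response differed between 2 and 4 wpc by the test of the difference itself for *Spp1* in Lepr-ctrl (1.72 on the log2 scale, from -2.10 to -0.38) and in Lepr-cKO (1.82, from -2.14 to -0.32), and for *Abca1* in Lepr-ctrl (-1.22, from 4.45 to 3.23).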

How the results depend on the processing

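For the injury comparisons, all 320 values under other settings and all 390 with 1 library left out kept their direction and side of the threshold. Between genotypes 279 of 280 and 386 of 390 kept their side, with the sign of 8 and 16 values that were not called changing, among them *Lpl* in injured nerves at 2 wpc, 0.40 and -0.12 without KO-126. For the genotype difference in response 160 of 160 and 390 of 390 kept their side, with 1 and 8 such sign changes, and for the time difference 157 of 160 and 388 of 390, with 2 and 11. The exceptions were calls gained, and no called value reversed. In injured nerves at 4 wpc, where 0 of the 10 genes were called between genotypes, the adjusted p alone gave 1 (*Apoe*), DESeq2 gave 1 (*Gpnmb*, -1.12, adjusted p = 0.0216), and leaving out 1 library gave 0 to 3. The Lepr-cKO time difference gave 1 to 2 calls when 1 library was left out, and the Lepr-ctrl one 2 to 3. Apart from the fit without KO-126, the calls over all genes with 1 library left out are not given here. *Fabp5* gained a Lepr-ctrl time call with DESeq2 (1.1, adjusted p = 0.035) and with at least 10 counts in every library (1.1, adjusted p = 0.0486). With the animal as a block, 9, 9, 8 and 8 of the 10 genes were called after injury in Lepr-ctrl and Lepr-cKO at 2 wpc and then at 4 wpc, 0 and 0 for the genotype difference in response, and 3 and 1 for the time difference in Lepr-ctrl and Lepr-cKO; apart from *Fabp5* the block changed no call. The cause of these shifts was not tested.

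Over all genes, the 105 calls between genotypes in injured nerves at 2 wpc became 22 with DESeq2, 207 with no filter, 19 with at least 10 counts in every library 0 with the compared groups alone and 1 without KO-126. At 4 wpc the 83 calls became 129, 40, 44 and 0 under the same settings, 51 with DESeq2 size factors and 41 with a term for sex. With mitochondrially encoded genes left out of the scaling, the median of all genes after injury in Lepr-cKO at 2 wpc was 0.138 in place of 0.097. Each genotype had 4 injured libraries at 4 wpc, which limits that comparison.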
